A study of Mus musculus with 26 samples.

Results

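The integrated stress response and the hormones GDF15 and FGF21 were followed through 10 genes in the adipocytes and the stromal vascular cells (SVCs) of mouse fat. The genes were Atf4, Ddit3, Trib3, Sesn2, Nupr1, Asns, Psat1, Chac1, Gdf15 and Fgf21, taken by their symbols from tables of 39017 genes, and all 10 were found. The mice were C57BL/6J males that entered the study at an age of 9 to 10 weeks. Lean controls ate a low fat diet (LFD, 10% fat) for 12 weeks, obese mice a high fat diet (HFD, 60% fat) for as long, and formerly obese mice (SW) switched to the LFD for 3 weeks after 9 weeks of HFD. Epididymal fat was digested with collagenase, the floating adipocytes were separated from the sedimented SVCs, and polyA RNA of both fractions was sequenced. The question was which changes of the obese fat stay after weight loss. The libraries used numbered 9 for adipocytes, 3 per diet, and 6 for SVCs, of which 1 was from LFD, 2 from HFD and 3 from SW mice. They are named by the number in their column.

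When a cell runs short of amino acids, folds proteins badly, meets viral RNA or lacks heme, one of several kinases phosphorylates the translation factor eIF2. General protein synthesis then slows, while the mRNA of the transcription factor ATF4 is translated more. ATF4 works with partners such as CHOP, the product of Ddit3, and raises genes for amino acid synthesis and transport, for feedback on the response, and for the secreted hormones GDF15 and FGF21. GDF15 lowers food intake through its receptor in the hindbrain. FGF21, best known as a fasting hormone of the liver, acts on adipocytes through FGF receptors and the co-receptor beta-klotho. Because ATF4 is controlled mainly at translation, the mRNA of its targets carries information that its own mRNA does not.

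Totals ran from 5781902 to 23725647 counts, and the smallest libraries were of LFD mice, where genes of low level are measured least well. Adipocyte markers such as Adipoq and Plin1 summed to between 4734 and 25743 CPM (counts scaled to library size) in the adipocyte libraries and to between 190.1 and 832 in SVC libraries, as the fraction labels say. Macrophage markers were present in the adipocyte fraction too. Their summed level over 12 genes, among them Adgre1 and Cd68, was 760 to 1251 CPM in LFD, 8700 to 10132 in HFD and 6391 to 9543 in SW adipocytes, and all 12 were higher in HFD than in LFD mice by edgeR's adjusted p. The HFD adipocyte libraries also stood apart in which genes were at 0: of genes averaging 10 counts or more in the groups that had them, 9 were found there alone and 8 were missing there alone, against 0 and 6 in LFD and 0 and 0 in SW libraries. The share of this division in comparisons with HFD adipocytes cannot be told apart from the diet. In SVCs, libraries 212 and 411 of HFD mice differed widely, with mitochondrial transcripts at 6.34% and 33.5% of the counts and the summed level of 8 immediate early genes, which respond to tissue digestion, at 7943 and 803 CPM. Calls that rest on them are given with and without each. In bulk RNA, fewer cells of a type and less RNA per cell cannot be told apart.

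ATF4 and its partners bind the C/EBP-ATF response element, and its letters TGATGNAA were searched on both strands in promoter windows of 300 bases, 250 before and 50 after the transcription start, taken from RefSeq for build GRCm38.p6. All 10 genes had a window, 12 windows in all, and 5 genes held the motif, each in 1 window, against 3.97% of all 32851 windows. The genes were listed as members of the response that ATF4 leads, so this share is a description and no test. These 5 sites are shown because they mark the members whose windows held the letters searched. The match is in capitals, and the gene's strand is read 5′ to 3′. The first base of the match lay 23 bases before the start for Asns, 193 before for Chac1, 139 before for Fgf21 and 110 before for Nupr1, and at base 15 after it for Trib3.
Asns (chr6:7693214-7693243, minus strand): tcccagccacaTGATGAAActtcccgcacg
Chac1 (chr2:119351038-119351067, plus strand): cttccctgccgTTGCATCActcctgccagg
Fgf21 (chr7:45615611-45615640, minus strand): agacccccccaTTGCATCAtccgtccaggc
Nupr1 (chr7:126625562-126625591, minus strand): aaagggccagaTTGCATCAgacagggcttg
Trib3 (chr2:152344028-152344057, minus strand): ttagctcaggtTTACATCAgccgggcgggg
Asns held the motif on its own strand and the other 4 on the opposite strand. The windows of Atf4, Ddit3, Psat1, Sesn2 and Gdf15 did not hold these letters. Gdf15, the member with the largest change between diets, is shown with the 250 bases before its upstream RefSeq start, in which the 5-letter core of the motif (TGATG on either strand, here CATCA) stands in capitals 236 bases before the start.
Gdf15 (chr8:70632457-70632706, minus strand): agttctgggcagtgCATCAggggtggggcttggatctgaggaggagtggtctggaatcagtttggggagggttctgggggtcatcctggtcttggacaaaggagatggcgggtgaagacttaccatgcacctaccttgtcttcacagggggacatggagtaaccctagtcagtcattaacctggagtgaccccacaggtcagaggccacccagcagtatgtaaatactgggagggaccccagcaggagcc
This core is common and was found before the start in 34.5% of all windows. The 250 bases before the other RefSeq start of Gdf15 did not hold it. A match of letters is a description of the sequence and does not show binding.

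In adipocytes, the members did not move as a group. Between HFD and LFD mice, Gdf15 and Fgf21 were higher, Trib3, Nupr1 and Asns were lower, and Atf4, Ddit3, Sesn2, Psat1 and Chac1 did not pass an adjusted p of 0.05 (edgeR's quasi-likelihood test, Benjamini-Hochberg over 14461 genes). That is 2 of 10 higher, where 26.5% of all genes tested were higher, and 3 of 10 lower, where 25% of all genes were lower, so neither share stood far from the background. The median log2 fold change of the members was -0.29, against -0.03 for all genes. From HFD to SW mice 2 members, Gdf15 and Nupr1, were higher, against 15.6% of all genes, and 0 were lower, against 15.9%. Unadjusted p was under 0.05 for 0 lower members in that comparison, and DESeq2 called 0 as well. Between SW and LFD mice Gdf15 alone was higher, against 10.9% of all genes, and 0 members were lower, against 6.18%. The unadjusted p of Asns was under 0.05 in the last comparison, and DESeq2 called 0 lower members.

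**Figure D1:**
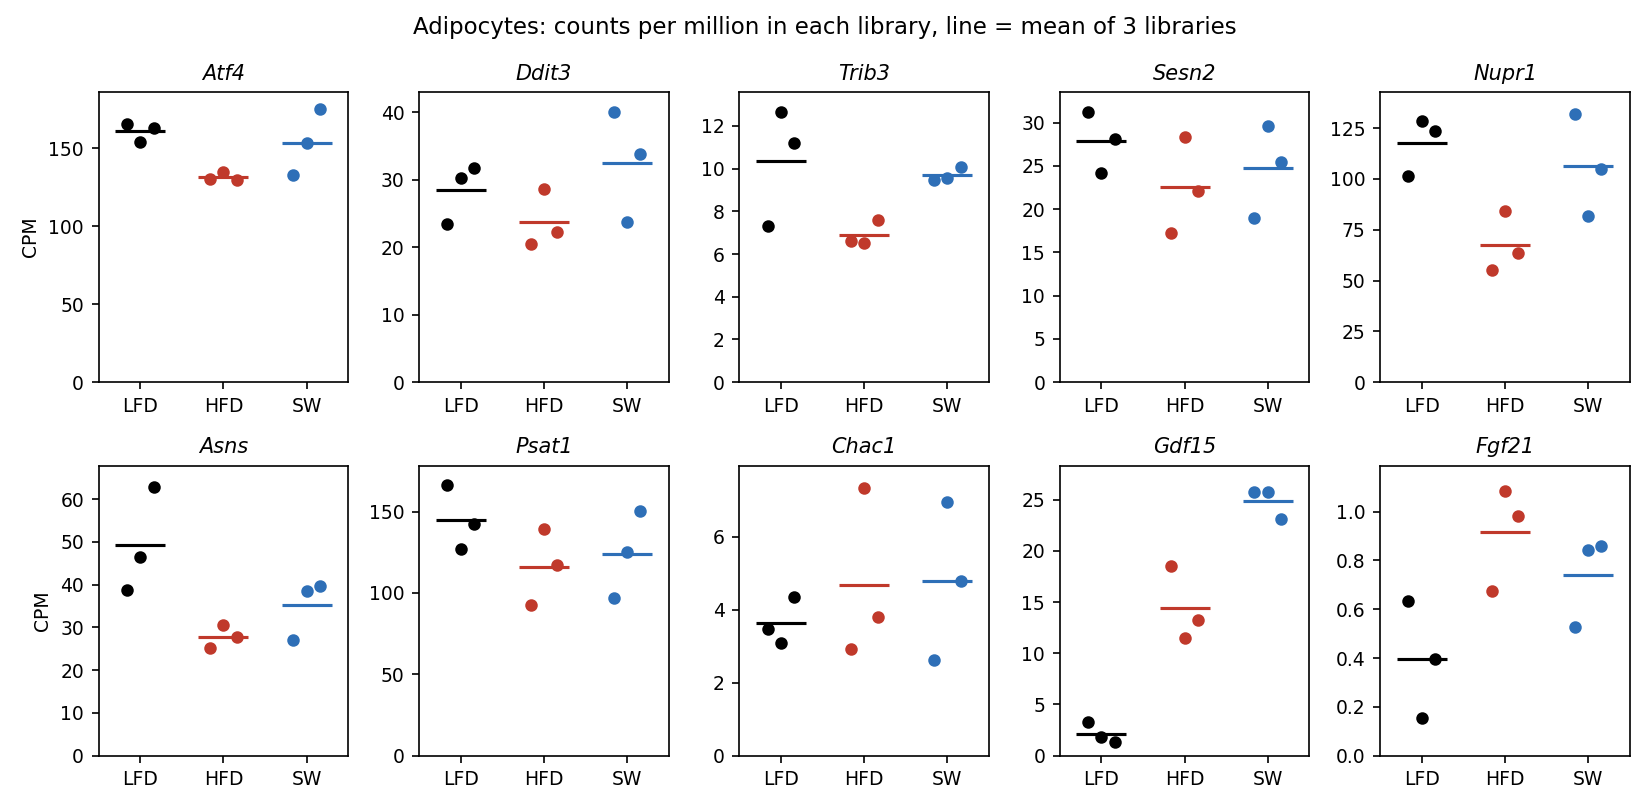
Level of each of the 10 genes in adipocytes, in CPM on a linear axis that starts at 0, with 1 point per library, and the mean of 3 libraries per diet as a line. Gdf15 rises in steps from LFD to HFD to SW without overlap, while Asns, Nupr1 and Trib3 are lowest in HFD mice.

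Gdf15 (ENSMUSG00000038508) showed the clearest pattern. Its level in LFD adipocytes was 3.33, 1.81 and 1.32 CPM, from 10 to 35 counts. In HFD adipocytes it was 18.6, 11.5 and 13.2 CPM, and in SW adipocytes it was 25.8, 25.7 and 23.1 CPM. No library of a diet overlapped with one of another diet, and the order was LFD, HFD, SW. The group means were 2.15 ± 1.05, 14.4 ± 3.67 and 24.9 ± 1.52 CPM (SD, n = 3 each). The rise between LFD and HFD was 7.0-fold, a log2 change of 2.81 (standard error 0.28, adjusted p = 4.5e-05 from edgeR). Between LFD and SW mice it was 12.1-fold, with a log2 change of 3.60 (standard error 0.28, adjusted p = 5.42e-05). After the switch to the LFD, Gdf15 was thus not lower but 1.73-fold higher than in HFD mice, a log2 change of 0.79 (standard error 0.22, adjusted p = 0.0258). This last step was the least certain. Its adjusted p rose to 0.0787 without HFD library 402, 0.107 without 403, 0.052 without SW library 407 and 0.0657 without 408, while the log2 fold change stayed between 0.62 and 1.00 in every fit that left out a library.

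Macrophage markers moved with the difference between HFD and LFD, and their part in it was not tested. Per 1000 CPM of the 12 macrophage markers, Gdf15 stood at 1.46 to 2.66 CPM in LFD, 1.31 to 1.85 in HFD and 2.70 to 3.82 in SW adipocytes. By this ratio LFD and HFD libraries overlapped, and the SW libraries lay above both. From HFD to SW 5 of 12 macrophage markers were lower and 0 were higher, and the median log2 change of the list was -0.48. The marker sum of SW library 407, at 9543 CPM, lay within the HFD range. The part of macrophages in the step of Gdf15 from HFD to SW was not tested. Immediate early genes were higher in SW mice, 7 of 8 against LFD and 2 of 8 against HFD, and 3 of 8 were higher in HFD than in LFD mice. Their summed level ran from 806 to 1677 CPM in LFD, 1309 to 2447 in HFD and 2260 to 3838 in SW adipocytes. Per 1000 CPM of immediate early genes, Gdf15 stood at 1.64 to 1.99 CPM in LFD, 5.76 to 10.1 in HFD and 6.32 to 11.4 in SW adipocytes. Per 1000 CPM of adipocyte markers it stood at 0.0512 to 0.227 in LFD, 1.19 to 3.92 in HFD and 1.90 to 2.61 in SW adipocytes. By these ratios HFD and SW libraries overlapped, and the LFD libraries lay below both.

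**Figure D2:**
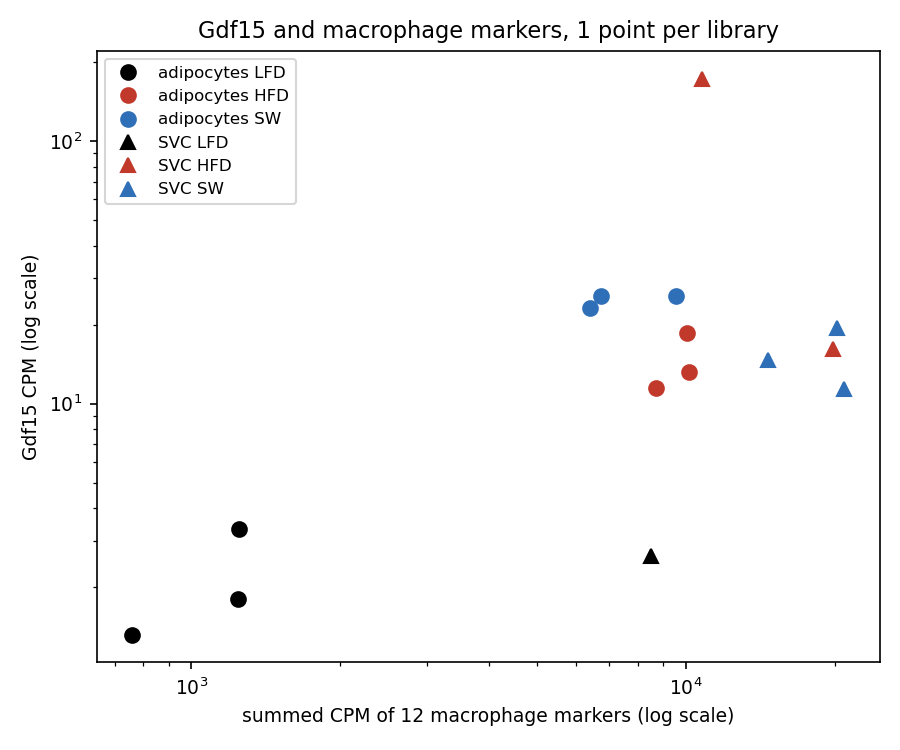
Gdf15 level against the summed level of 12 macrophage markers, both in CPM on log axes, with 1 point per library, circles for adipocytes and triangles for SVCs, black for LFD, red for HFD and blue for SW. SW adipocytes lie above HFD adipocytes at a like or lower marker sum, and the SVC library of an HFD mouse numbered 212 lies far above all others, at 173 CPM.

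Across the 9 adipocyte libraries, the genes whose log2 level was most like that of Gdf15 among 14461 were Tnf (Pearson's r = 0.985), Clec4d (r = 0.982) and Cxcl2 (r = 0.981). Tnf encodes a cytokine, Clec4d a C-type lectin of myeloid cells and Cxcl2 a neutrophil-attracting chemokine. Clec4d was at 1.19 to 3.96 CPM in LFD, 31.9 to 44.6 in HFD and 45.4 to 123 in SW adipocytes. These correlations are across libraries that share diets and macrophage content, so they describe a pattern and carry no test.

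Fgf21 (ENSMUSG00000030827) was near the limit of detection. The libraries held 4, 3 and 3 counts in LFD, 9, 26 and 22 in HFD and 5, 14 and 12 in SW adipocytes. In CPM these were 0.634, 0.155 and 0.396 for LFD, 0.676, 1.09 and 0.984 for HFD, and 0.526, 0.841 and 0.858 for SW mice. All HFD values lay above all LFD values, but the lowest of the former was close to the highest of the latter, and SW overlapped with both. Its log2 change between HFD and LFD was 1.48 (standard error 0.51, adjusted p = 0.033 from edgeR). The summed counts of 57 and 10 gave a ratio of 3.18 with an exact 95% interval of 1.61 to 6.99 for counting error only. The call was lost with DESeq2 (adjusted p = 0.0621), with no filter on low counts (0.0577) and without any 1 of 6 libraries, most of all LFD library 405 (0.206). SW mice differed from neither group past the threshold, with log2 fold changes of -0.29 against HFD (95% interval -1.23 to 0.64) and 1.18 against LFD (-0.00 to 2.37).

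Atf4 (ENSMUSG00000042406), the transcription factor at the centre of the response, was abundant and slightly lower in HFD than in LFD mice, without passing the threshold. It stood at 166, 154 and 163 CPM in LFD, 130.3, 135 and 129.8 in HFD and 133, 153 and 175 in SW adipocytes. The HFD libraries lay together below all LFD libraries, and the SW libraries spread over both ranges. The change in log2 units between HFD and LFD was -0.29 (95% interval -0.56 to -0.02), with an adjusted p of 0.0725 from edgeR. It passed the threshold in 4 of 16 alternatives. These were DESeq2 (adjusted p = 0.0335), upper-quartile factors (0.0296), a fit of only the groups compared (0.035) and a fit without SW library 407 (0.03). Between SW and HFD it was 0.22 (-0.05 to 0.49), and between SW and LFD it was -0.07 (-0.34 to 0.21).

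Ddit3 (ENSMUSG00000025408), which encodes CHOP, a partner of ATF4 in prolonged stress, overlapped between all diets. Its level was 23.5, 30.2 and 31.8 CPM in LFD, 20.4, 28.6 and 22.2 in HFD and 39.9, 23.8 and 33.8 in SW adipocytes. On the log2 scale the change between HFD and LFD was -0.26 (95% interval -0.72 to 0.20, adjusted p = 0.309 from edgeR) and between SW and HFD 0.44 (-0.01 to 0.90, adjusted p = 0.12). These intervals leave room for changes of moderate size in either comparison. In GENCODE M21 its exons overlap with those of Mars and Gm4189 on the other strand. They also overlap with another gene entry named Ddit3 on the same strand, from which strand cannot separate the reads. Whether the counting used strand is not given in the sources used here.

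Of the genes that feed back on the response, Trib3 and Nupr1 were lower in HFD adipocytes and Sesn2 was not called. Adipocyte markers moved the same way: 5 of 8 were lower in HFD than in LFD mice (median log2 change of the list -0.94) and 3 of 8 were higher in SW than in HFD mice (median 0.57). Their sum was 14675 to 25743 CPM in LFD, 4734 to 9671 in HFD and 9877 to 12149 in SW adipocytes, and their part in the change of Trib3 and Nupr1 was not tested. Nupr1 (ENSMUSG00000030717), a small stress-induced chromatin protein, was at 102, 129 and 124 CPM in LFD, 55.2, 84.2 and 63.6 in HFD and 132, 81.8 and 105 in SW mice. All HFD libraries but 402 lay below all others, and 402 was above 1 SW library. Nupr1 changed on the log2 scale by -0.80 between HFD and LFD (standard error 0.20, adjusted p = 0.00824 from edgeR) and 0.65 between SW and HFD (standard error 0.20, adjusted p = 0.036). The first call was kept in all 16 alternatives. The second was kept in 10 and lost in a fit of only the groups compared and without LFD library 405, HFD library 401 or 403, or SW library 407 or 409, with adjusted p-values up to 0.121.

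Trib3 (ENSMUSG00000032715), a pseudokinase that restrains ATF4 and CHOP, was at 7.29, 12.6 and 11.2 CPM in LFD, 6.61, 6.51 and 7.60 in HFD and 9.46, 9.55 and 10.1 in SW mice. LFD library 404 lay within the HFD range, whereas all SW libraries lay above all HFD libraries. The change in log2 units was -0.61 between HFD and LFD (standard error 0.19, adjusted p = 0.0232 from edgeR), a call that was lost in 4 of the fits that left out 1 library, with an adjusted p of up to 0.134 without LFD library 405. From HFD to SW mice it was 0.49 (95% interval 0.06 to 0.91, adjusted p = 0.0736). Sesn2 (ENSMUSG00000028893), a leucine sensor and inhibitor of mTORC1, ranged from 17.3 to 31.2 CPM over all adipocyte libraries, and its log2 fold changes of -0.29, 0.13 and -0.16 in the 3 comparisons had adjusted p-values of 0.272 or more.

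Among the metabolic targets, Asns was lower in HFD adipocytes, as were 5 of 8 adipocyte markers. Asns (ENSMUSG00000029752), which makes asparagine, was at 38.7, 46.4 and 62.8 CPM in LFD, 25.1, 30.6 and 27.8 in HFD and 27.1, 38.6 and 39.7 in SW mice. HFD and LFD libraries did not overlap, and SW library 407 lay within the HFD range. On the log2 scale the change between HFD and LFD was -0.82 (standard error 0.20, adjusted p = 0.00605 from edgeR), and the call was kept in all 16 alternatives. SW mice lay between the other groups and differed from neither past the threshold, by 0.34 from HFD (95% interval -0.09 to 0.77) and by -0.48 from LFD (-0.92 to -0.05, adjusted p = 0.12). The adipocyte marker sums had the same order of diets, and the part of these and of the mesothelial markers, lower in HFD mice for 4 of 4, was not tested.

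Psat1 (ENSMUSG00000024640), the second enzyme of serine synthesis, was at 92.3 to 166 CPM over all adipocyte libraries. Its log2 fold change between HFD and LFD was -0.32 (95% interval -0.75 to 0.12, adjusted p = 0.195 from edgeR). Chac1 (ENSMUSG00000027313), which degrades glutathione, was at 2.63 to 7.35 CPM and varied more within a diet than between diets. Its log2 fold change was 0.40 (95% interval -0.52 to 1.31, adjusted p = 0.439), and without HFD library 402, its highest, it was -0.08. The plot of log2 fold changes shows the 10 genes side by side.

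**Figure D3:**
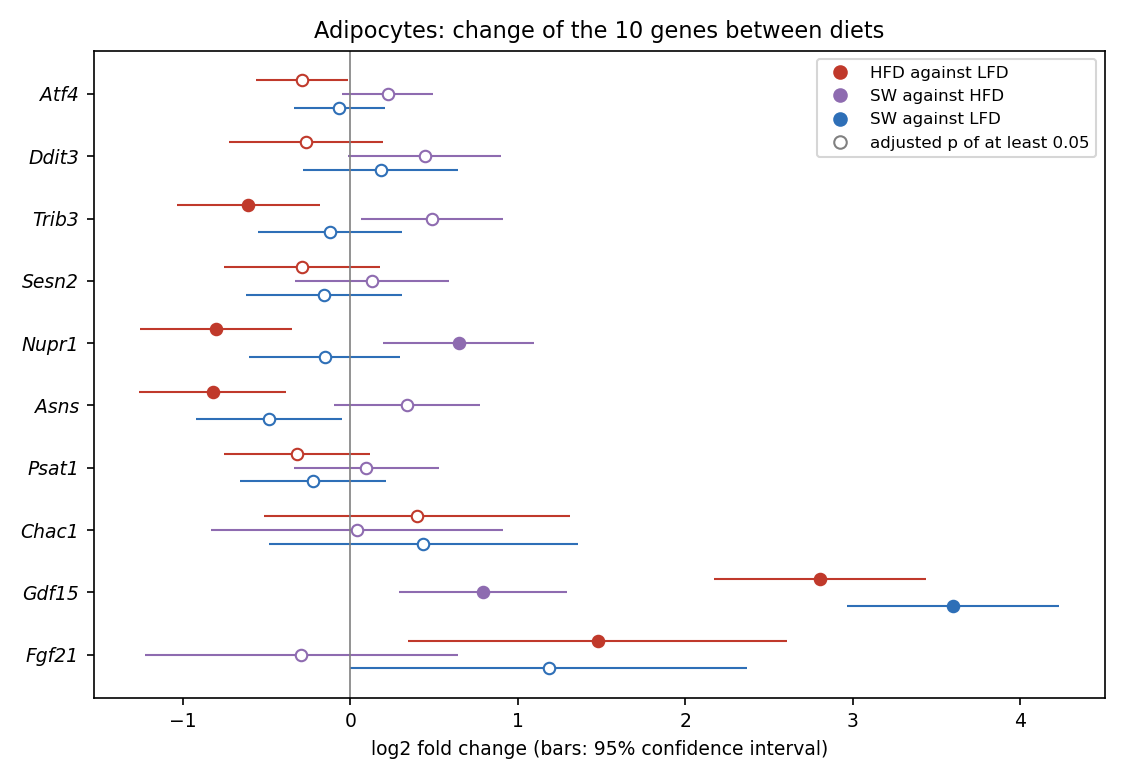
Log2 fold change of each gene in the 3 comparisons of adipocytes, with the 95% confidence interval as a bar, filled where the adjusted p from edgeR was under 0.05. Only the bars of Gdf15 against LFD mice lie wholly above 2, and Nupr1 and Gdf15 are the filled points for SW against HFD.

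Per kilobase of the longest coding transcript, the order of the levels in LFD adipocytes was Nupr1 at 142, Atf4 at 93.2, Psat1 at 55.5, Ddit3 at 32.0, Asns at 24.4, Sesn2 at 8.01, Trib3 at 5.12, Chac1 at 2.23, Gdf15 at 1.39 and Fgf21 at 0.415 CPM per kilobase. In SW adipocytes Gdf15 stood at 16.1 CPM per kilobase, next to Asns at 17.4 and above Sesn2 at 7.11. In HFD adipocytes it stood at 9.34, also between Asns at 13.8 and Sesn2 at 6.50. Gdf15 was thus one of the least abundant members in lean mice and of middle rank in obese and formerly obese mice. Fgf21 was last in every diet.

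The members also differed in how they varied over the 9 adipocyte libraries. On the log2 scale, Sesn2 and Psat1 had a Pearson correlation of 0.90, Ddit3 and Nupr1 of 0.84, Atf4 and Asns of 0.79 and Atf4 and Psat1 of 0.79. Gdf15 had a negative correlation with Asns of -0.74, with Psat1 of -0.48 and with Nupr1 of -0.45. With Fgf21, which had few counts, Gdf15 had a correlation of 0.68 and Trib3 one of -0.72. The points share diets, so these values are a description of 9 libraries, without a test. The genes whose pattern was most like that of Asns were Sfxn1, a mitochondrial serine transporter (r = 0.992), Zfp2 (r = 0.987) and Ppm1b, a protein phosphatase (r = 0.978). Those most like Atf4 were Dzank1 (r = 0.958), Ovol1 (r = 0.944) and Gm16973 (r = 0.94), and those most like Ddit3 were Tsen54 (r = 0.981), Polr2j (r = 0.975) and Tmbim6, a protein of the endoplasmic reticulum membrane (r = 0.972).

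The other genes of the pathway, a list of 67 with 63 tested in adipocytes, were divided by role. Between HFD and LFD mice 19 were higher and 16 lower, with a median log2 fold change of 0.14 against -0.03 for all genes. Between SW and HFD 7 were higher and 12 lower, and between SW and LFD mice 6 were higher and 5 lower. Set against the percentages of all genes given earlier, these counts stand near the background. The roles are described by their counts, to be read against the 26.5% of all genes that were higher and the 25% that were lower in HFD mice, and differences between roles were not tested.

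The kinases that start the response were higher in HFD adipocytes in 2 of 4 cases. Eif2ak2 encodes PKR, which senses double-stranded RNA, and stood at 19.7, 16.8 and 16.7 CPM in LFD, 30.7, 25.5 and 26.7 in HFD and 19.9, 18.7 and 18.5 in SW mice. Its HFD libraries lay above all others, with a log2 change of 0.64 against LFD (standard error 0.12, adjusted p = 0.00165 from edgeR) and -0.54 for SW against HFD (adjusted p = 0.011). Eif2ak1, for the heme-regulated kinase HRI, rose by 0.30 (adjusted p = 0.0261). Eif2ak3, for the endoplasmic reticulum kinase PERK, and Eif2ak4, for the amino acid sensor GCN2, differed by 0.35 and 0.32 with adjusted p-values of 0.0515 and 0.0501. From HFD to SW Eif2ak3 fell by 0.41 and Eif2ak4 fell by 0.46 on the log2 scale, with adjusted p-values of 0.0434 and 0.0208. Of 10 genes for eIF2, its exchange factor eIF2B and its phosphatase, 2 were higher and 3 lower in HFD mice, with Eif2s1, the phosphorylated subunit, at 0.52 (adjusted p = 0.00424) and Eif2b4 at -0.76 (adjusted p = 0.00362).

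Of 5 bZIP transcription factors that pair with ATF4, Atf3 was higher and Cebpb, Cebpa and Atf5, the last pair named after their values were seen, were lower in HFD adipocytes. Atf3, a stress-induced repressor, had the largest rise of the list. It stood at 27.6, 13.0 and 10.7 CPM in LFD, 262, 192 and 201 in HFD and 168, 206 and 209 in SW adipocytes. Its log2 change was 3.70 between HFD and LFD (standard error 0.32, adjusted p = 1.94e-05 from edgeR) and 3.53 between SW and LFD (standard error 0.32, adjusted p = 7.76e-05). HFD and SW libraries overlapped, with a difference of -0.17 (adjusted p = 0.672). Atf3 is also an immediate early gene and is made by macrophages, whose markers moved with it, and their part in its rise was not tested. Cebpb went the other way, from 57.2 to 65.7 CPM in LFD to 33.4 to 42.8 in HFD and 63.3 to 111 in SW mice, with log2 fold changes of -0.72 (adjusted p = 0.01) and 1.19 (adjusted p = 0.00479).

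The amino acid genes held calls in both directions. Phgdh, the first enzyme of serine synthesis, had 423, 432 and 541 CPM in LFD, 87.5, 162 and 90.2 in HFD and 246, 273 and 317 in SW mice, without overlap. It fell by 2.04 on the log2 scale from LFD to HFD (standard error 0.25, adjusted p = 0.000129 from edgeR) and was 1.30 higher in SW than in HFD mice (adjusted p = 0.00691). The adipocyte marker sums had the same order of diets, and their part in the change of Phgdh was not tested. Psph, the third enzyme, named after its value was seen, fell by 0.89, while the member Psat1 between them was not called. The mitochondrial folate enzyme Aldh1l2 was higher by 1.82 (adjusted p = 0.0146) at 0.258 to 2.37 CPM in the 2 groups. Among 8 serine and folate-linked enzymes 5 were higher and 2 lower in HFD mice. Of 8 amino acid transporters 2 were higher and 2 lower, with Slc1a5, a glutamine carrier, at -1.18 (adjusted p = 0.00568) and Slc7a5, the large neutral amino acid carrier, at 0.88 (adjusted p = 0.0267). Of 12 aminoacyl-tRNA synthetases 5 were higher and 0 lower, led by Iars at 1.11 (adjusted p = 3.41e-05) and Nars at 0.76 (adjusted p = 0.000414).

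Of 11 other known targets of ATF4 or CHOP tested, 4 were lower and 2 were higher in HFD adipocytes. Stc2, a secreted glycoprotein, was at 16.5, 20.6 and 23.5 CPM in LFD, 5.03, 6.68 and 4.20 in HFD and 8.94, 10.6 and 13.5 in SW mice, and fell by 1.93 on the log2 scale from LFD to HFD (standard error 0.22, adjusted p = 9.71e-05 from edgeR). Eif4ebp1, a brake on cap-dependent translation, fell by 1.60 (standard error 0.23, adjusted p = 0.000358). Both were higher in SW than in HFD mice, by 1.05 and 1.18, with adjusted p-values of 0.00966 and 0.00764. Stc2 was still below LFD mice, by a log2 value of -0.87 (adjusted p = 0.0197). The adipocyte marker sums were also lowest in HFD mice, and their part in the changes of Stc2 and Eif4ebp1 was not tested.

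The receptors of both hormones were measured in the same libraries. Gfral, the GDF15 receptor of the hindbrain, had 0 counts in all 15 libraries, which allows up to 3 counts in each, between 0.124 and 0.524 CPM. Its co-receptor Ret was at 39.2, 28.9 and 20.7 CPM in LFD, 20.2, 23.2 and 17.0 in HFD and 13.9, 9.55 and 14.2 in SW adipocytes. It was lower in SW than in LFD mice by a log2 value of -1.24 (standard error 0.24, adjusted p = 0.00615 from edgeR), while the difference between HFD and LFD was -0.55 (adjusted p = 0.072). Klb, the FGF21 co-receptor beta-klotho, was at 16.6 to 22.7 CPM in LFD, 9.47 to 16.4 in HFD and 9.46 to 17.7 in SW adipocytes, a difference of -0.48 between HFD and LFD (adjusted p = 0.137). Fgfr1, its main partner in fat, differed by 0.27 (adjusted p = 0.113). Fgfr3 and Fgfr2 were lower in HFD mice, by -1.53 (adjusted p = 0.00338) and -0.77 (adjusted p = 0.0361), at levels of 10.2 CPM or less.

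**Figure D4:**
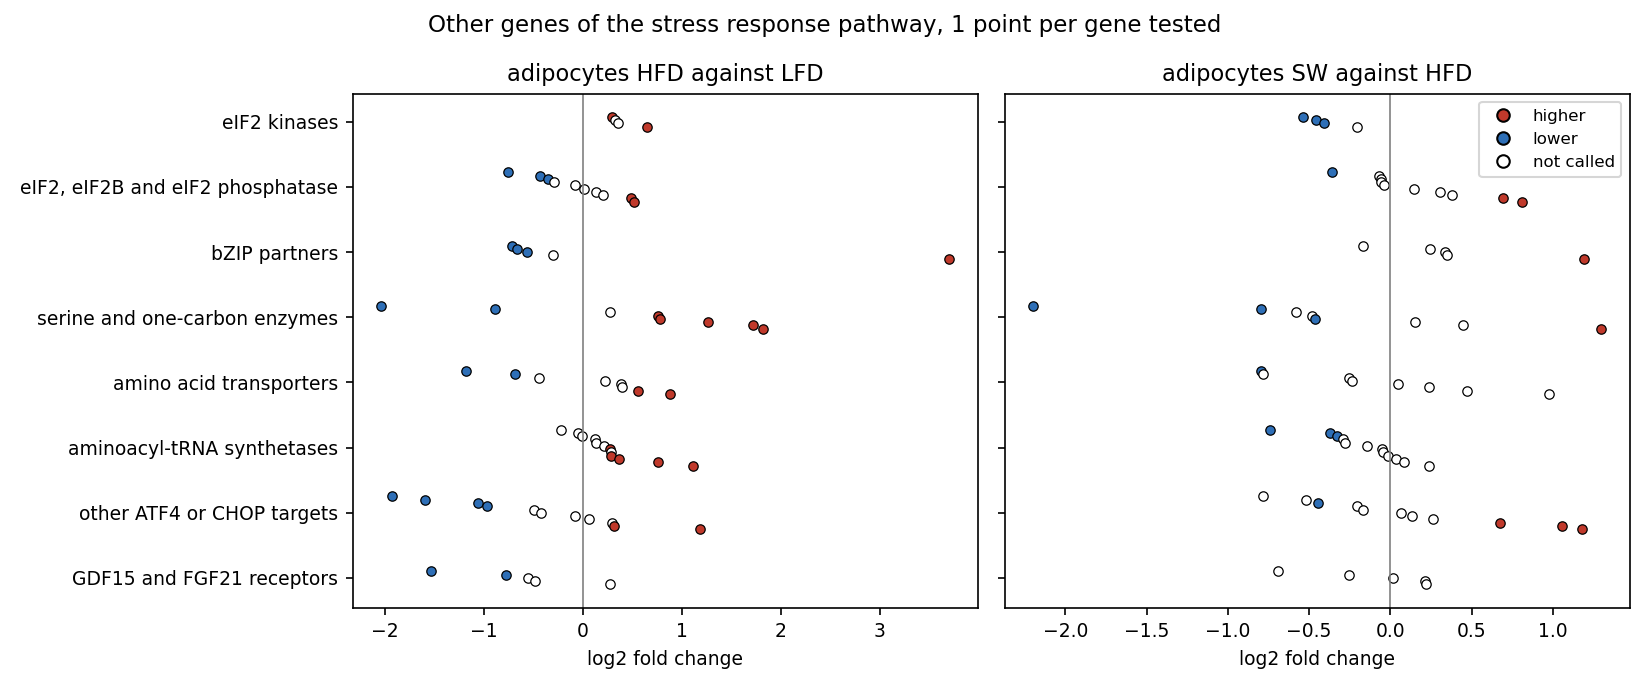
Log2 fold change of the 63 other pathway genes tested in adipocytes, by role, with HFD against LFD on the left and SW against HFD on the right, 1 point per gene, red where higher and blue where lower at an adjusted p under 0.05. The aminoacyl-tRNA synthetases and kinases are not called lower in HFD mice, while serine enzymes and targets split between -2.04 and 1.82.

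In SVCs, Gdf15, Atf4, Ddit3 and Nupr1 differed most between the HFD libraries themselves. The LFD library held Gdf15 at 2.62 CPM, the HFD libraries 212 and 411 at 173 and 16.2, and the SW libraries at 19.5, 14.7 and 11.4. Library 411 lay within the SW range, and library 212, with 2987 counts, lay far above both. Library 212 also had the highest Atf4, Ddit3 and Nupr1 of all SVC libraries. Atf4 was at 59.2 CPM in LFD, 209 and 99.0 in HFD and 84.0, 85.8 and 86.0 in SW mice. Ddit3 was at 6.46 CPM in LFD, 23.0 and 10.9 in HFD and 14.1, 14.6 and 12.9 in SW mice. Immediate early genes were high in library 212 too, at 7943 CPM against 803 to 3695 in the other 5 SVC libraries, while its macrophage marker sum of 10775 CPM was the lower of the 2 HFD libraries. Per 1000 CPM of immediate early genes, Gdf15 stood at 1.23 CPM in LFD, 21.8 and 20.2 in HFD and 3.98 to 9.54 in SW libraries. Per 1000 CPM of macrophage markers it stood at 0.308 in LFD, 16.1 and 0.818 in HFD and 0.546 to 1.01 in SW libraries. By the first ratio the HFD libraries lay together, and by the second they lay apart. The part of these markers in the levels of library 212 was not tested.

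From HFD to SW mice 0 members were higher in SVCs, against 5.71% of 16319 genes, and 0 were lower, against 11.7%, with 9 members tested. The unadjusted p was under 0.05 for Atf4, Trib3 and Gdf15. Gdf15 differed on the log2 scale by -2.64 (standard error 0.85, adjusted p = 0.0706 from edgeR), which was -0.02 without library 212 and -3.51 without library 411. Atf4 differed by -0.85 (adjusted p = 0.0993), by -0.14 without library 212 and by -1.29 without library 411. Trib3 differed by 1.11 (adjusted p = 0.0677), by 0.92 without library 212 and by 1.44 without library 411. DESeq2 called 1 higher, Trib3 (adjusted p = 0.0353), and 1 lower, Gdf15 (adjusted p = 0.00521). Without library 411, with 1 HFD library assumed to vary like the other groups, edgeR called 2 members higher, where 17.4% of all genes were, and 3 lower, where 21.7% were. Without library 212 it called 0 and 0, where 1.76% and 1.46% of all genes were called.

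**Figure D5:**
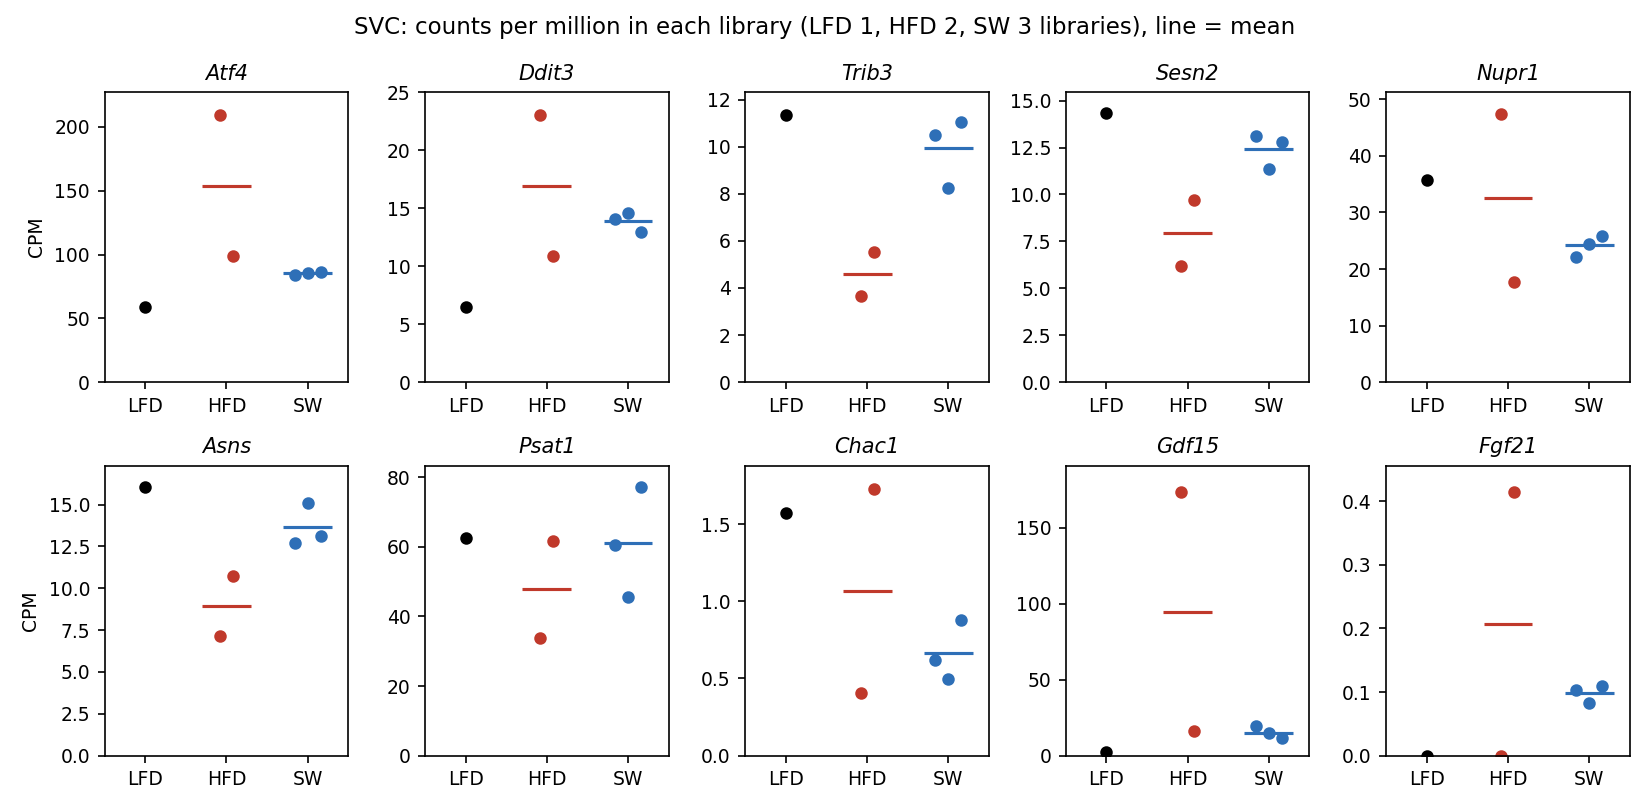
Level of each of the 10 genes in SVCs, in CPM on a linear axis that starts at 0, with 1 point per library and the mean of each group of 2 or 3 as a line. The HFD library at 173 CPM of Gdf15 also leads for Atf4, Ddit3 and Nupr1. Trib3, Sesn2 and Asns are lower in both HFD libraries than in all other SVC libraries. How many of all genes share this order is not given.

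Trib3, Sesn2 and Asns were lowest in both HFD libraries of SVCs. Trib3 was at 11.4 CPM in LFD, 3.65 and 5.52 in HFD and 10.5, 8.22 and 11.1 in SW mice. Sesn2 was at 14.3 CPM in LFD, 6.20 and 9.73 in HFD and 13.1, 11.4 and 12.8 in SW mice. Asns was at 16.1 CPM in LFD, 7.13 and 10.8 in HFD and 12.7, 15.1 and 13.1 in SW mice. For all 3 genes the HFD libraries lay below every LFD and SW library, but the adjusted p from edgeR for SW against HFD was 0.0677, 0.165 and 0.168. How many of all genes lay in this order is not given, so the order is a description only. Psat1 was at 62.5 CPM in LFD, 33.8 and 61.7 in HFD and 45.5 to 77.2 in SW mice, and Chac1 was at 1.57 CPM, 0.406 and 1.72, and 0.496 to 0.876, both with overlap. The summed markers of adipocytes and of progenitors stood in the same order as Trib3, Sesn2 and Asns in SVCs. The sums of the other marker lists overlapped between HFD and SW libraries, as for endothelial markers at 157 and 274 CPM in HFD and 148 to 216 in SW mice. The adipocyte markers summed to 832 CPM in LFD, 190.1 and 387 in HFD and 426 to 626 in SW mice. Markers of progenitors, 4 genes, summed to 2639 CPM in LFD, 690 and 903 in HFD and 1407 to 1870 in SW mice. Singly they were split, with 1 higher and 1 lower in SW than in HFD mice. Dpp4 of this list went against the sum, at 29.0 CPM in LFD, 22.3 and 42.1 in HFD and 7.11 to 13.2 in SW mice. The part of these markers in the differences was not tested.

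With 1 LFD library in SVCs, differences from LFD mice have no replicate check and no test. Gdf15 stood 36.2-fold higher in the mean of the HFD libraries and 5.80-fold higher in SW mice than in the LFD library, which held 15 counts of it (exact 95% interval 8.40 to 24.7 counts, for counting error only). Library 411 alone stood at 6.19 times the LFD value. Atf4 was at 2.60 times the LFD value in the mean of the HFD libraries, 1.67 times in library 411 alone and 1.44 times in SW mice. Ddit3 was at 2.62 times the LFD value in the HFD mean, 1.69 times in library 411 alone and 2.15 times in SW mice. For Fgf21 the LFD library and library 212 held 0 counts, library 411 held 6 and the SW libraries 1, 2 and 1, and it was not tested in this fraction. A count of 0 allows up to 0.524 CPM in the LFD library. Macrophage markers summed to 8502 CPM in the LFD library, 10775 and 19814.5 in HFD and 14632.5 to 20873 in SW libraries. Mesothelial markers summed to 814 CPM in the LFD library, 13.2 and 122 in HFD and 108 to 149 in SW libraries. The part of these markers in the differences from the LFD library was not tested.

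The fractions were compared in 1 fit of all 15 libraries, over 17441 genes. In SW mice 0 members were higher in SVCs than in adipocytes, against 35.6% of all genes, and 6 of 10 were lower, against 32.8%. The unadjusted p was under 0.05 for 0 higher members, and DESeq2 called 0, while a fit of only the groups compared called 1, Trib3 (adjusted p = 0.0436). The lower members were Ddit3, Sesn2, Nupr1, Asns, Chac1 and Fgf21, by log2 fold changes of -0.80, -0.58, -1.71, -0.94, -2.48 and -2.47. The median of the 10 was -0.71, against 0.09 for all genes. The call of Sesn2 (adjusted p = 0.0479 from edgeR) was kept in 11 of 22 alternatives and lost with DESeq2, limma-voom, both other scaling factors and without library 403, 404, 405, 406, 408, 409 or 413, with an adjusted p of up to 0.181. That of Fgf21 (adjusted p = 0.0309) was lost without library 408, 409, 412 or 413, with an adjusted p of up to 0.0808. Gdf15 did not pass the test between the fractions of SW mice, and its error was wide, with a log2 change of -0.29 (95% interval -1.47 to 0.89, adjusted p = 0.651).

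In HFD mice 1 member, Gdf15, was higher in SVCs, against 16.2% of all genes, and 4, Sesn2, Asns, Psat1 and Chac1, were lower, against 12.9%. Gdf15 differed by a log2 value of 2.97 (standard error 0.60, adjusted p = 0.00369 from edgeR), but by 0.57 without library 212 and by 3.82 without library 411. Either fit left a single HFD library in SVCs, so only effect sizes are given for them. Psat1 differed by -0.95 (adjusted p = 0.0366), by -0.52 without library 212 and by -1.55 without library 411. Chac1 differed by -1.81 (adjusted p = 0.0428), by -1.06 without library 212 and by -3.28 without library 411. The calls of Gdf15, Psat1 and Chac1 were lost without library 212. Sesn2 and Asns had log2 fold changes of -1.18 (adjusted p = 0.00808) and -1.31 (adjusted p = 0.00421) and kept their direction in every alternative. Without library 212 they were -0.83 and -0.98, and without library 411 they were -1.64 and -1.73. The call of Sesn2 was lost in a fit of only the groups compared (adjusted p = 0.0638).

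An interaction in the same fit tested whether SVCs and adipocytes responded unequally to the switch from HFD. It did so for 0 members in the higher direction, against 11.4% of genes, and for 2 members in the lower direction, Atf4 and Gdf15, against 15.7%. The difference of log2 fold changes, SVCs minus adipocytes, was -3.26 for Gdf15 (standard error 0.81, adjusted p = 0.0109 from edgeR) and -0.94 for Atf4 (standard error 0.29, adjusted p = 0.0301). Both calls were lost without library 212. Without it the values were -0.86 and -0.41, in a fit with a single HFD library of SVCs. For Atf4 the call was lost in 7 of 22 alternatives, also in a fit of only the groups compared (adjusted p = 0.054) and without adipocyte library 401, 403, 408 or 409 or SVC library 412 (adjusted p = 0.0537 to 0.0708). For Nupr1 the difference was -0.94 (adjusted p = 0.115), with a rise in adipocytes and no call in SVCs. The unadjusted p was under 0.05 for 0 members in the higher direction, and DESeq2 called 0.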

How the data were processed

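PolyA RNA of adipocytes and SVCs was sequenced, and the authors deposited estimated counts per gene, made with Bowtie2 and RSEM on mouse build mm9 per the labels. Versions are not given in the sources used here. The deposited values were whole numbers. RSEM shares reads among similar transcripts, so related genes are less certain. Of the columns, 3 matched no label and were not used. The labels hold 26 records of 18 libraries, of which 15 were used. No label says that the mice of a group were separate animals, and p-values measure the spread between libraries. Counts were rounded, filtered with filterByExpr (minimum count 10), scaled by TMM and tested with edgeR 4.0.16 (quasi-likelihood, robust, limma 3.58.1, R 4.3.3) for each fraction and jointly, at a Benjamini-Hochberg adjusted p under 0.05. CPM use the scaling of the library's own fraction. A log2 fold change has a 95% interval, and levels at 0 allow 3 counts. Intervals of counts cover counting error only. Transcript lengths came from GENCODE M21 and promoters from RefSeq, both of a build other than that of the counts, which was used for sequence only.

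All 10 members were named, with, of each role of the pathway list, the 2 genes of largest change past the threshold between HFD and LFD adipocytes, all eIF2 kinases and receptors, and, for Atf4, Ddit3, Asns and Gdf15, the 3 genes of most alike pattern. The members and lists were chosen with earlier results of these data known. Alternatives were DESeq2 1.42.0, limma-voom, other scaling factors, other filters on low counts, fits limited to the groups compared, and fits without 1 library at a time. The fits were tested on simulated data.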

Additional observations from a re-analysis of the deposited data

Results flagged for a closer look

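For 2 genes the change from HFD to SW mice differed between the fractions, by an interaction term in edgeR's fit of all 15 libraries. The log2 fold change in SVCs minus that in adipocytes was -3.26 for Gdf15 (standard error 0.81, adjusted p = 0.0109) and -0.94 for Atf4 (standard error 0.29, adjusted p = 0.0301). In adipocytes Gdf15 was higher in SW than in HFD mice, while in SVCs it was not called. Without the SVC library 212 of an HFD mouse the values were -0.86 and -0.41, and both calls were lost. Without library 411 the values were -4.21 and -1.43. Either fit left a single HFD library in SVCs, so only effect sizes are given. The call of Atf4 was lost in 7 of 22 alternatives, also with only the groups compared and without library 401, 403, 408, 409 or 412. Library 212 also held the highest immediate early gene sum, 7943 CPM, whose part in this was not tested.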

How the results depend on the processing

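No paired analysis was possible because the column numbers that name the libraries are in no label and are not shared between groups. In adipocytes, Gdf15 (HFD and SW against LFD), Asns and Nupr1 (HFD against LFD) were called in all 16 alternatives. Between HFD and LFD, 1 member was higher with DESeq2, with no filter and with at least 10 counts in every library, and leaving out a library gave 1 to 2 higher and 2 to 4 lower. Between SW and HFD it gave 0 to 3 higher. In SVCs DESeq2 gave 1 higher and 1 lower, and leaving out a library gave 0 to 2 and 0 to 3. For SVCs against adipocytes in SW mice, a fit of only the groups compared gave 1 higher, and leaving out a library gave 4 to 8 lower. In HFD mice, upper-quartile factors gave 2 higher and 2 lower, only the groups compared 0 and 1, and leaving out a library 0 to 2 and 2 to 5. For the difference between fractions, only the groups compared gave 1 lower, and leaving out a library gave 0 to 1 higher and 0 to 4 lower. The cause was not tested.

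Directions that turned belonged to uncalled values. The Fgf21 difference between fractions was 0.75 with limma-voom. Leaving out a library gave, between HFD and LFD adipocytes, -0.075 to 0.62 for Chac1. Between SW and HFD it gave -0.032 to 0.30 for Sesn2, -0.065 to 0.24 for Psat1 and -0.34 to 0.50 for Chac1. Between SW and LFD it gave -0.17 to 0.030 for Atf4 and -0.30 to 0.062 for Trib3. In SVCs it gave -0.72 to 0.42 for Ddit3, -0.97 to 0.53 for Nupr1 and -1.32 to 0.68 for Chac1. For SVCs against adipocytes in HFD mice it gave -0.020 to 0.90 for Atf4, -0.74 to 0.18 for Ddit3 and -0.69 to 0.066 for Trib3. For the difference between fractions it gave -0.090 to 0.84 for Psat1, -1.43 to 0.70 for Chac1 and -1.72 to 4.09 for Fgf21. Depth limits Fgf21 and, in LFD libraries, Gdf15.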
